A study of Mus musculus with 2 samples.

Results

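The 8 genes described here are those of type 2 immunity and of the response to the alarmin interleukin-33 in leukocytes of the pancreatic islets: Gata3, Rora, Il1rl1, Areg, Calca, Il13, Il5 and Il4. They were taken by gene symbol from the 32285 genes of the deposited tables, and each symbol was found once. The sort took live cells with surface CD45, the leukocyte marker, and without CD31, a marker of vessel lining, from hand-picked islets of female mice aged 12 weeks. All mice were of the NOD strain, which develops autoimmune diabetes, and the groups were NOD without a further allele (WT NOD) and NOD.Cxcl16-/-, which by its name lacks the chemokine gene Cxcl16. Each group has 1 library, and the number of animals behind it is not given in the labels. A difference between the libraries therefore has no replicate check, no test was made between them, and every 95% interval below covers counting error only.

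The library sizes were 13859 barcodes with 93553185 UMIs (unique molecular identifiers, 1 per captured transcript) for WT NOD and 10554 barcodes with 98681133 UMIs for NOD.Cxcl16-/-. After filters 10894 and 9352 cells were left, with median totals of 3898.5 and 4894.5 UMIs, and 45 barcodes occurred in both libraries, of which 34 were kept in both. Cxcl16 UMIs were present in both libraries, at 78.3 CPM (counts per 10 to the 6 UMIs of the group of cells, here all kept cells) in WT NOD and 97.7 CPM in the other, and at 686 and 285 CPM in macrophage-like cells. The labels do not say which exons the allele lacks, so a 3' tag cannot check it, and the second library is named throughout as the library labelled NOD.Cxcl16-/-. Of 30 clusters of cells, 22 were named from markers as 12 classes, written "-like", and 2212 cells (20.3%) and 1431 cells (15.3%) stayed unnamed.

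Group 2 innate lymphoid cells (ILC2s) are tissue lymphocytes without antigen receptors. They are known to respond to the alarmin interleukin-33, which is released by stressed or damaged cells and binds ST2, the receptor chain encoded by Il1rl1. Their identity depends on the transcription factors GATA3 and RORα (Gata3 and Rora), and activated ILC2s secrete interleukin-5, a survival factor for eosinophils, interleukin-13, a relative of interleukin-4 that acts on epithelium and macrophages, and amphiregulin (Areg), a growth factor of the EGF family. Regulatory T cells (Tregs) of tissues also carry ST2 and make amphiregulin, T helper cells of type 2 make all of the type 2 cytokines, and Calca encodes the neuropeptide CGRP, which restrains ILC2s.

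The cytokine genes lie together. On mouse build GRCm38, Il4 (chr11:53602982-53618669, minus strand), Il13 (chr11:53631324-53634702, minus strand) and Il5 (chr11:53720794-53725106, plus strand) form 1 locus, in which 12654 bp separate Il4 from Il13 and the gene Rad50 lies between Il13 and Il5. The other 5 are at chr2:9857078-9890034 (Gata3, minus strand), chr1:40429570-40465415 (Il1rl1, plus), chr5:91139599-91148432 (Areg, plus), chr7:114631478-114636357 (Calca, minus) and chr9:68653786-69388246 (Rora, plus, a gene of 734461 bp).

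The promoters of Il13, Il5, Il1rl1 and Areg, whose UMIs over both libraries lay mostly in ILC2-like or Treg-like cells, are shown as examples. They carry short letters known from binding sites of GATA or cyclic-AMP dependent factors. Calca UMIs also lay mostly in those classes, and its window is described below without its sequence. RefSeq (GRCm38.p6) gave 10 start sites for the 8 genes. The 250 bases before each start were searched on both strands for the GATA letters, which are AGATAA or else AGATAG, likewise TGATAA or else TGATAG, and for the cyclic-AMP response letters TGACGTCA. No GATA match overlapped a TGACGTCA match in these windows. In the lines below each sequence runs 5' to 3' on the gene's strand up to the base before the start site, and capitals mark the matches.
Il13, chr11:53634703-53634952, minus strand: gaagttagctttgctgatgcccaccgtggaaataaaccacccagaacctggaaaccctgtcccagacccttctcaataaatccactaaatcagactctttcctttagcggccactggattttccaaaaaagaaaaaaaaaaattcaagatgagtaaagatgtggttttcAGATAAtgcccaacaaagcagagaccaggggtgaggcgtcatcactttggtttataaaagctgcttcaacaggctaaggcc
Il5, chr11:53720544-53720793, plus strand: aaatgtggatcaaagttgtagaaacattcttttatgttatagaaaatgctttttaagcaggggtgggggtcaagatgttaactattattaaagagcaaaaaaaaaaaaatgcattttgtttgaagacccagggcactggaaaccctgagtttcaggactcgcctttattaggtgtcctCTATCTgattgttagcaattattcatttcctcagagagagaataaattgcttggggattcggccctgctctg
Il1rl1 (upstream start), chr1:40429320-40429569, plus strand: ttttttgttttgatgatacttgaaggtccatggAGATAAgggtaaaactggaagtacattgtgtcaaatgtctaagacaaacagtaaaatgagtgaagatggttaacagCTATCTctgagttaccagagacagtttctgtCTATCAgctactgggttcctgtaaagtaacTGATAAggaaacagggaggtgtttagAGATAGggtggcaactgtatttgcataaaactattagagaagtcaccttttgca
Areg, chr5:91139349-91139598, plus strand: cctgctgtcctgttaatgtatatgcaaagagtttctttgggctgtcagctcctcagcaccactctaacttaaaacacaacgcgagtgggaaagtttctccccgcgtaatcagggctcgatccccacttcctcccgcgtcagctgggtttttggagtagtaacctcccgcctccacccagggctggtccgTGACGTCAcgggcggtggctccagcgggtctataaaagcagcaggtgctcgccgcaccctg

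GATA letters were found in 7 of the 10 windows, from 6 of the 8 genes, against 26.5% of 32851 promoter windows of the same length. The match began at position -81 in Il13 and -72 in Il5, counted back from the start site. The upstream Il1rl1 window held 5 matches, at -217, -141, -110, -80 and -54. Areg held no GATA letters and 1 copy of TGACGTCA at -61, letters found in 1.55% of all windows. The Gata3 window and the upstream Il4 window held neither, and the inner windows of Il4 and Il1rl1 and those of Calca and Rora held 1 GATA match each. A match describes letters and not a bound site.

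A single cluster made up the ILC2-like class, with 47 WT NOD cells and 84 from the library labelled NOD.Cxcl16-/-, and the 8 genes took no part in forming or naming it. Of its 10 naming markers, 7 and 8 were detected in at least 20% of the cells, among them Lmo4, Ptpn13, Hilpda, Pparg, Arg1 and Csf2. The summed marker level was 1674 and 2198 CPM. Nmur1, a neuropeptide receptor that often marks ILC2s, had 0 and 2 UMIs. The list of mast cell or basophil markers had 1 UMI and 0 UMIs, and that of eosinophils 0 and 1. These cells are known carriers of Il4 and Il13 besides T cells, and their markers were at or near 0. T-cell transcripts were present, with Cd3d at 174 and 93.4 CPM against 1444 and 1200 CPM in Treg-like cells, and 16 and 14 ILC2-like cells had a UMI of Cd3d or Cd3e. In the ILC2-like class the CD8 T, CD4 T and Treg marker lists summed to 866, 845 and 856 CPM in WT NOD. In the other library they summed to 630, 627 and 639 CPM. Of the 7 Treg markers, 4 and 2 were detected in at least 20% of the cells. Islet hormone transcripts summed to 10.6 and 182 CPM. The part of these transcripts in the results was not tested. Ratios without the cells that held Cd3d or Cd3e are given after the account of the 8 genes.

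Most of these genes stood highest in ILC2-like cells in both libraries. The plot of levels by cell class shows this, with B-like cells, which should lack the programme, as the background. In B-like cells (1718 and 2023 cells, median 4575 and 4590 UMIs) each of the 8 was at or under 3.79 CPM and in at most 1.53% of cells. ILC2-like cells had similar depth, with medians of 3949 and 4477.5 UMIs.

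**Figure D1:**
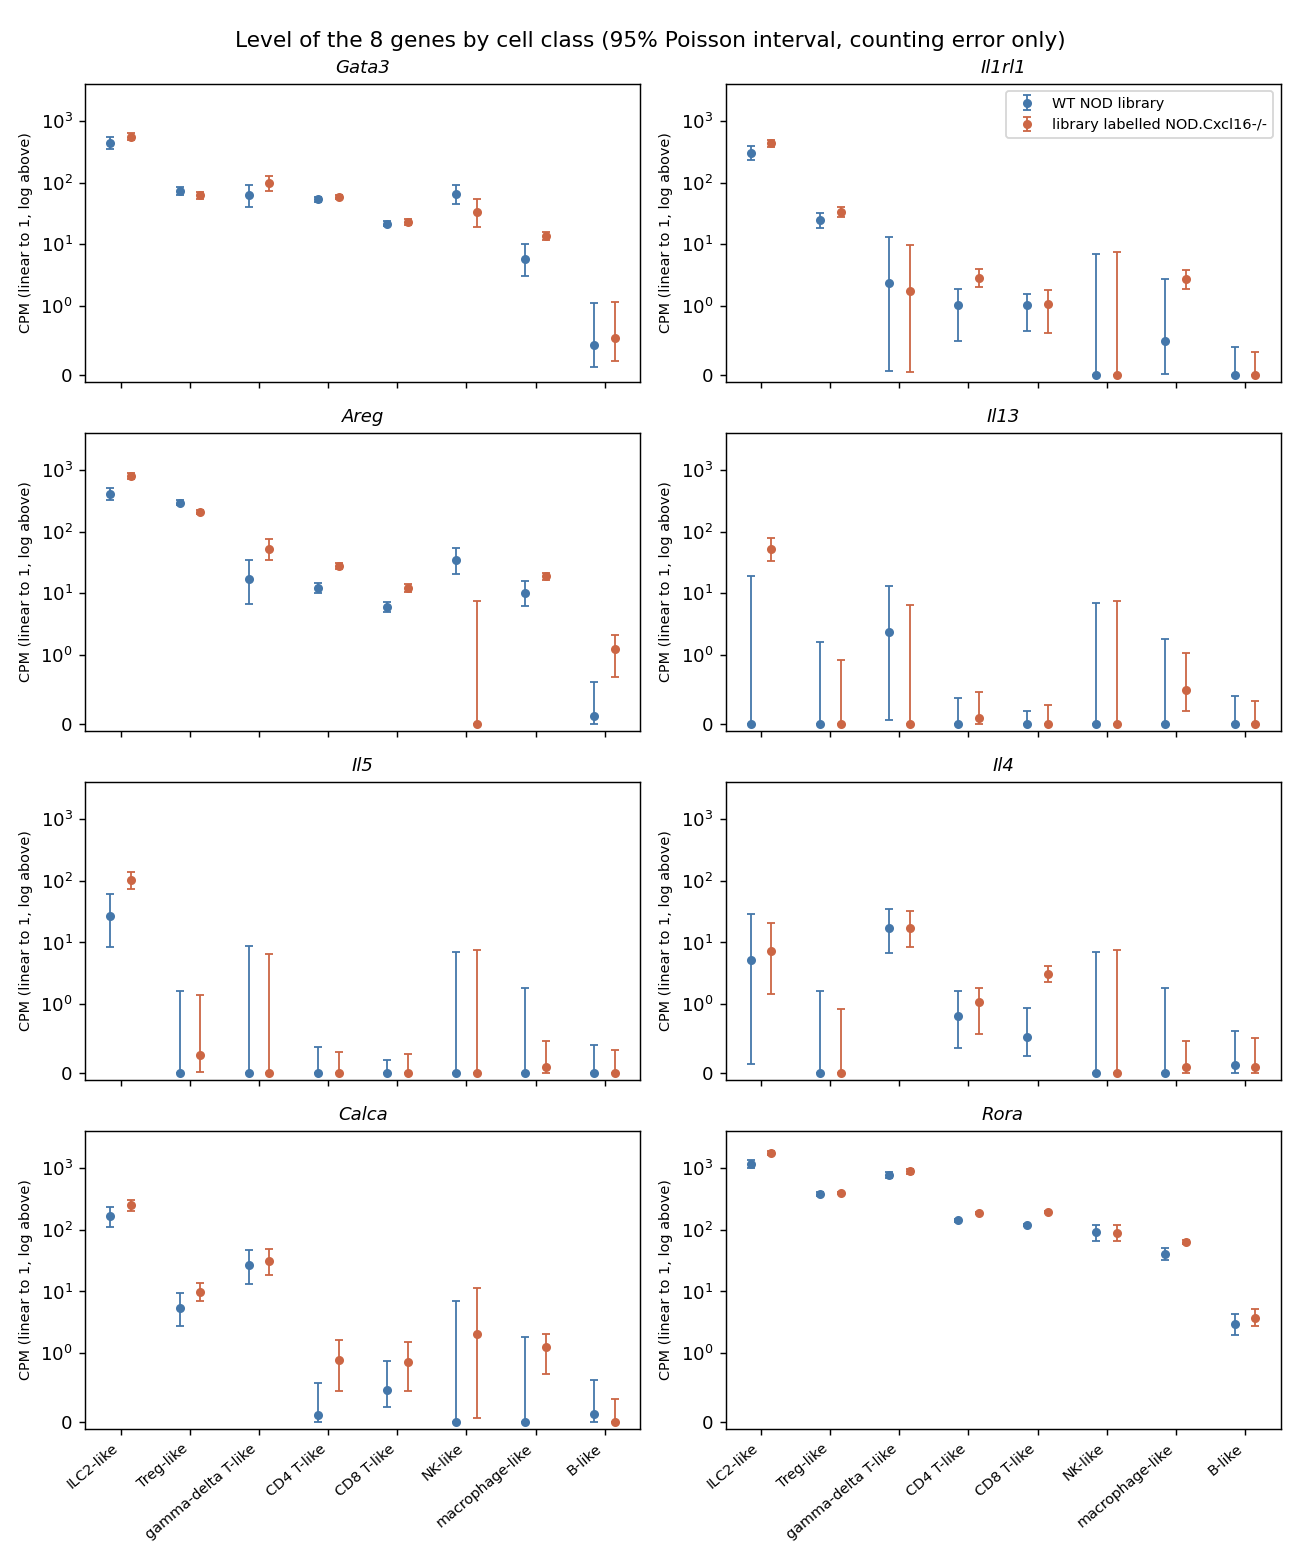
Level of each gene (CPM, on an axis linear to 1 and logarithmic above) in 8 cell classes, with points for the WT NOD library (blue) and the library labelled NOD.Cxcl16-/- (orange) and bars for 95% Poisson intervals, which cover counting error only. Rora stands at 1157 and 1719 CPM in ILC2-like cells and at most at 3.79 CPM in B-like cells, while the Il4 points are highest in gamma-delta T-like cells.

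Gata3, which encodes the transcription factor that directs type 2 lymphocytes, was detected in 31 of 47 WT NOD ILC2-like cells with a median of 1 and a highest value of 6 UMIs. In the library labelled NOD.Cxcl16-/- it was detected in 74 of 84 cells, with a median of 3 and a highest value of 13. The per-cell counts of the libraries overlapped widely. Summed over the class, Gata3 stood at 438 CPM (349 to 543 at 95%) in WT NOD. It stood at 555 CPM (486 to 632) in the other library, and the log2 ratio was 0.34 (-0.03 to 0.72), so the counting interval of the ratio included no difference. Among T-cell classes Gata3 stood at 74.1 and 62.9 CPM in Treg-like cells, at 62.7 and 97.7 CPM in gamma-delta T-like cells and at 53.8 and 57.8 CPM in CD4 T-like cells. In WT NOD the Treg-like interval (63.3 to 86.3 CPM) lay above that of CD4 T-like cells, and the interval of gamma-delta T-like cells overlapped both. In the other library gamma-delta T-like cells (73.8 to 127 CPM) lay above Treg-like cells (55.3 to 71.2 CPM), which overlapped CD4 T-like cells. CD8 T-like cells had 21.8 and 23.4 CPM.

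Rora, the gene of the nuclear receptor RORα that ILC2 development needs, was found in 37 of 47 and 80 of 84 ILC2-like cells, with medians of 4 and 8 UMIs. The class had 1157 CPM (1009 to 1320) in WT NOD and 1719 CPM (1595 to 1849) in the other library, and the log2 ratio was 0.57 (0.35 to 0.80). That is just under the 1.5-fold used here as the limit for a call. After each cell was thinned to 2000 UMIs, the shares of cells with Rora were 80.5% and 84.1%, close to each other and against 0.551% and 0.611% of B-like cells. Rora was the least restricted of the 8. It stood at 761 and 880 CPM in gamma-delta T-like cells and 378 and 393 CPM in Treg-like cells, with intervals apart from each other and from ILC2-like cells in both libraries. An unnamed cluster led by Il22, Il23r and Cited4 (33 and 19 cells) carried Rora at 925 and 728 CPM but had 0 UMIs of Il1rl1, Il13, Il5, Il4 and Calca in either library, and Gata3 at 90.8 and 29.5 CPM.

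Il1rl1, the gene of the interleukin-33 receptor chain ST2, was found in 31 of 47 and 66 of 84 ILC2-like cells, with medians of 1 and 2 UMIs and highest values of 4 and 9. The levels were 306 CPM (233 to 396) and 431 CPM (370 to 499), and the log2 ratio was 0.49 (0.06 to 0.95). At 2000 UMIs per cell the shares were 56.1% and 52.4%, so no order is read from detection. Treg-like cells came next among the classes compared, at 24.7 and 33.5 CPM. CD4 T-like, CD8 T-like and gamma-delta T-like cells lay between 1.03 and 2.88 CPM, and NK-like and B-like cells had 0 UMIs in both libraries.

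Areg, the growth factor gene, was found in 19 of 47 WT NOD cells, with a median of 0 and a highest value of 15 UMIs, and in 57 of 84 cells of the other library, with a median of 2 and a highest value of 21. The summed level was 412 CPM (326 to 514) against 804 CPM (721 to 895), with a log2 ratio of 0.97 (0.61 to 1.34). The thinned shares were 31.7% (18.1 to 48.1) and 53.7% (42.3 to 64.7), with overlapping intervals.

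Calca, the gene of the neuropeptide CGRP and of calcitonin, was found in 11 of 47 and 31 of 84 ILC2-like cells, with up to 6 and 9 UMIs in a cell. The levels of 164 CPM (111 to 232) and 247 CPM (201 to 299) gave a log2 ratio of 0.59 (-0.00 to 1.22), an interval that just includes no difference. Among lymphocyte classes the order was ILC2-like, then gamma-delta T-like cells at 26.5 and 31.4 CPM, then Treg-like cells at 5.39 and 9.89 CPM. CD4 T-like and B-like cells stayed under 1 CPM.

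Il5 and Il13 were rare even in ILC2-like cells. Il5 had 5 UMIs in 4 of 47 WT NOD cells and 43 UMIs in 16 of 84 cells of the other library, which is 26.4 CPM (8.57 to 61.6) against 103 CPM (74.5 to 139), and the log2 ratio was 1.96 (0.63 to 3.66). A single cell held 24 of the 43 UMIs. Without the cell highest for Il5 in each library, 3 and 19 UMIs were left, with a log2 ratio of 1.497. The thinned shares were 2.44% (0.0617 to 12.9) and 7.32% (2.73 to 15.2), with overlapping intervals.

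Il13 had 0 UMIs in the 47 WT NOD ILC2-like cells, a share whose exact interval reaches 7.55% of cells. It had 22 UMIs in 6 of 84 cells (7.14%, 2.67 to 14.9) of the other library. The shares of cells were thus not distinguishable at this depth. Against a floor of 3 UMIs for WT NOD, the level of 52.7 CPM (33.0 to 79.7) was 3.32-fold higher (log2 1.73). This floor ratio leaves out the counting error of the 22 UMIs, and the true ratio can be lower. Without the cell with most Il13 the log2 floor ratio was 1.17, and after thinning 0.22. The 2 cells with most Il13 had 7 UMIs each. When doublets were kept, the WT NOD class gained 2 Il13 UMIs, and over all barcodes before any filter Il13 had 10 UMIs in 7 barcodes and 37 UMIs in 14 barcodes. All 6 Il13-positive ILC2-like cells also held Gata3, Il1rl1 and Rora, 5 held Areg, 2 held Il5, 1 held Calca and none held a Cd3e UMI.

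Il4 was all but absent from ILC2-like cells, with 1 UMI in 1 of 47 cells and 3 UMIs in 1 of 84. No fold is given for counts at or under the floor of 3.

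**Figure D2:**
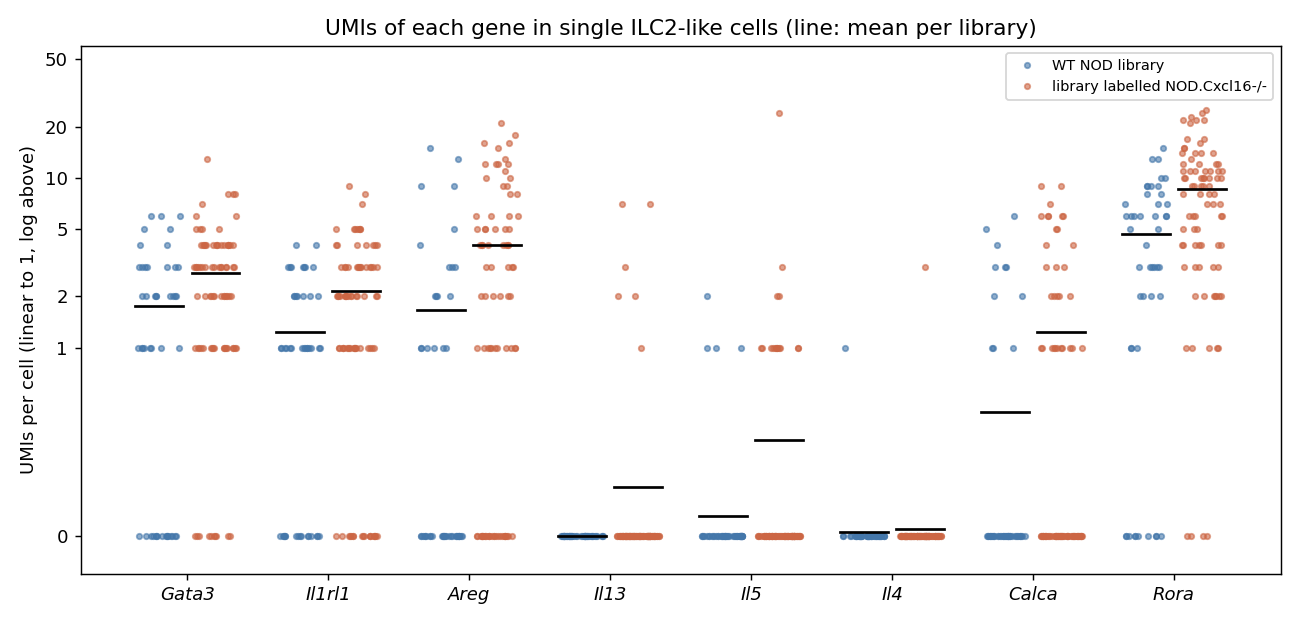
UMIs of each gene in every single ILC2-like cell, on an axis linear to 1 and logarithmic above, for the WT NOD library (blue, 47 cells) and the library labelled NOD.Cxcl16-/- (orange, 84 cells), with a black line at the mean of each library. The spreads of Gata3, Il1rl1 and Rora overlap, Il13 lies at 0 in all 47 WT NOD cells, and 1 cell with 24 UMIs stands apart for Il5.

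Read together over the ILC2-like class, 6 of the 8 genes had at least 30 UMIs over both libraries, the minimum for a call, and Il13 and Il4 did not. Il5 reached that minimum through the library in which it was higher. With the 16 and 14 cells that held Cd3d or Cd3e left out, the log2 ratio was 1.28 for Areg, 1.64 for Il5 and 0.59 for Calca. It was 0.43 for Rora, 0.34 for Gata3 and 0.29 for Il1rl1, and the log2 floor ratio for Il13 was 1.51. Against all cells of the class, Areg was higher, Gata3 and Calca had the same rounded value, and Il1rl1, Rora, Il5 and Il13 were lower. A gene was called where the level differed by at least 1.5-fold and the counting interval excluded 1. Areg and Il5 were called higher in the library labelled NOD.Cxcl16-/- and no member was called lower, where 6.33% of the 2873 genes measured were called higher and 3.03% lower. The median log2 ratio of all measured genes was 0.06. ILC2-like cells with 3 or more of the 8 genes made up 63.8% of the WT NOD class and 92.9% of the other, and 5 of 47 cells against 0 of 84 had none of them. These shares were not thinned, and the median UMI totals differ as given above.

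**Figure D3:**
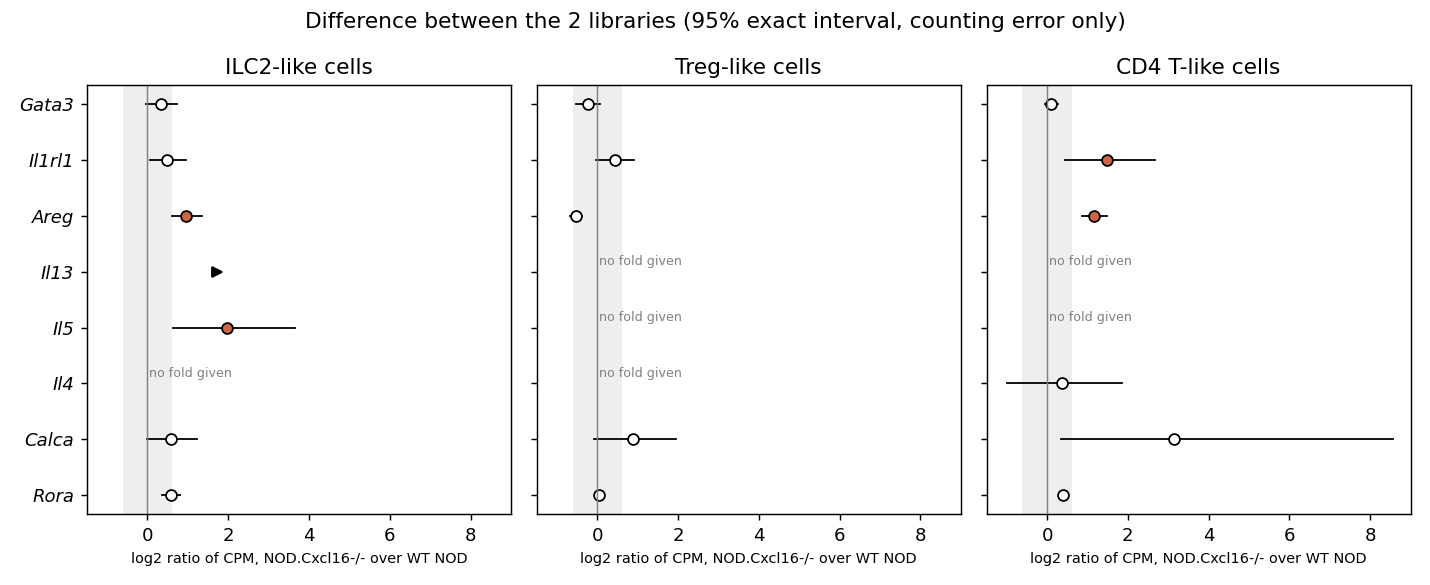
Log2 ratio of each gene's level, library labelled NOD.Cxcl16-/- divided by WT NOD, in ILC2-like, Treg-like and CD4 T-like cells, with 95% exact intervals for counting error. Filled points pass the call, the arrowhead marks a ratio against the floor of 3 UMIs, and the grey band spans less than 1.5-fold. Areg is filled and above 0 in ILC2-like (0.97) and CD4 T-like cells (1.16) and lies at -0.52 in Treg-like cells.

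Other genes of the pathway were read from lists in the ILC2-like class, where 6.33% of all 2873 measured genes were called higher and 3.03% lower. Among 10 other ILC2 products, 3 were measured and 2 were called higher, with a median log2 ratio of 1.01. These were Csf2, a myeloid growth factor, at 164 and 330 CPM, and Arg1, an arginine-degrading enzyme, at 116 and 237 CPM; both are also naming markers of the class. The chemokine gene Ccl1 stood at 327 and 311 CPM. Penk, the precursor of enkephalin peptides, had 0 and 20 UMIs, under the minimum for a call, and is not among the measured genes. It was named after its values were seen. Against a floor of 3 UMIs for WT NOD, its level was 3.02-fold higher in the library labelled NOD.Cxcl16-/-. This floor ratio leaves out the counting error of the 20 UMIs, and the true ratio can be lower.

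Of 8 alarmins and alarmin receptor chains, 2 were measured and none was called. Il7r, shared by the receptors of interleukin-7 and TSLP, was at 1004 and 867 CPM, and Il17rb, the interleukin-25 receptor chain, at 73.9 and 38.3 CPM (log2 ratio -0.95, -2.08 to 0.20). The alarmin gene Il33 itself had 0 and 1 UMI there. Of 11 neuropeptide and lipid receptor genes 5 were measured. Ramp3, a partner chain of peptide receptors, was called higher at 127 and 203 CPM, while Ramp1, the partner chain of the CGRP receptor, was at 586 and 419 CPM (log2 ratio -0.48, -0.84 to -0.13), not past 1.5-fold.

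Of 16 type 2 transcription regulators 9 were measured and 1, Tox, was called higher, at 164 and 297 CPM, with a median log2 ratio of 0.30 for the list. Id2, Ets1 and Bcl11b, all known to act in ILC development, were not called. At the cytokine locus, Irf1, the interferon-regulated neighbour beyond Il5, was called higher at 460 and 824 CPM. Of 10 tissue Treg genes 7 were measured and Ctla4, a checkpoint receptor, was called lower at 143 and 79.0 CPM. The T-cell transcript Cd3d also stood lower in that library, at 174 and 93.4 CPM, and its part in the Ctla4 call was not tested. Receptors of the type 2 cytokines (1 of 7 measured) and targets of interleukin-4 and interleukin-13 signalling (2 of 11 measured) gave no call. With so few measured members, counts of this kind describe only the named genes.

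Where the transcripts lay in the whole sort differed between the 8 genes. ILC2-like cells were 0.431% and 0.898% of kept cells and held 83.3% (5 of 6 UMIs) and 93.5% (43 of 46) of all Il5. They held 36.5% (29.0 to 44.5) and 42.5% (37.7 to 47.3) of Il1rl1 and 43.1% (31.4 to 55.3) and 46.0% (39.3 to 52.7) of Calca. For Il13 the counts were 0 of 2 and 22 of 29.

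The share of Areg in ILC2-like cells was 6.45% (5.13 to 7.98) in WT NOD and 15.8% (14.3 to 17.4) in the other library, while Treg-like cells held 54.5% and 38.4%. Gata3 and Rora were spread over T cells, with 5.32% and 11.7% of Gata3 UMIs and 3.48% and 7.29% of Rora UMIs in ILC2-like cells. Such a share follows both the level per cell and the number of cells in a class.

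**Figure D4:**
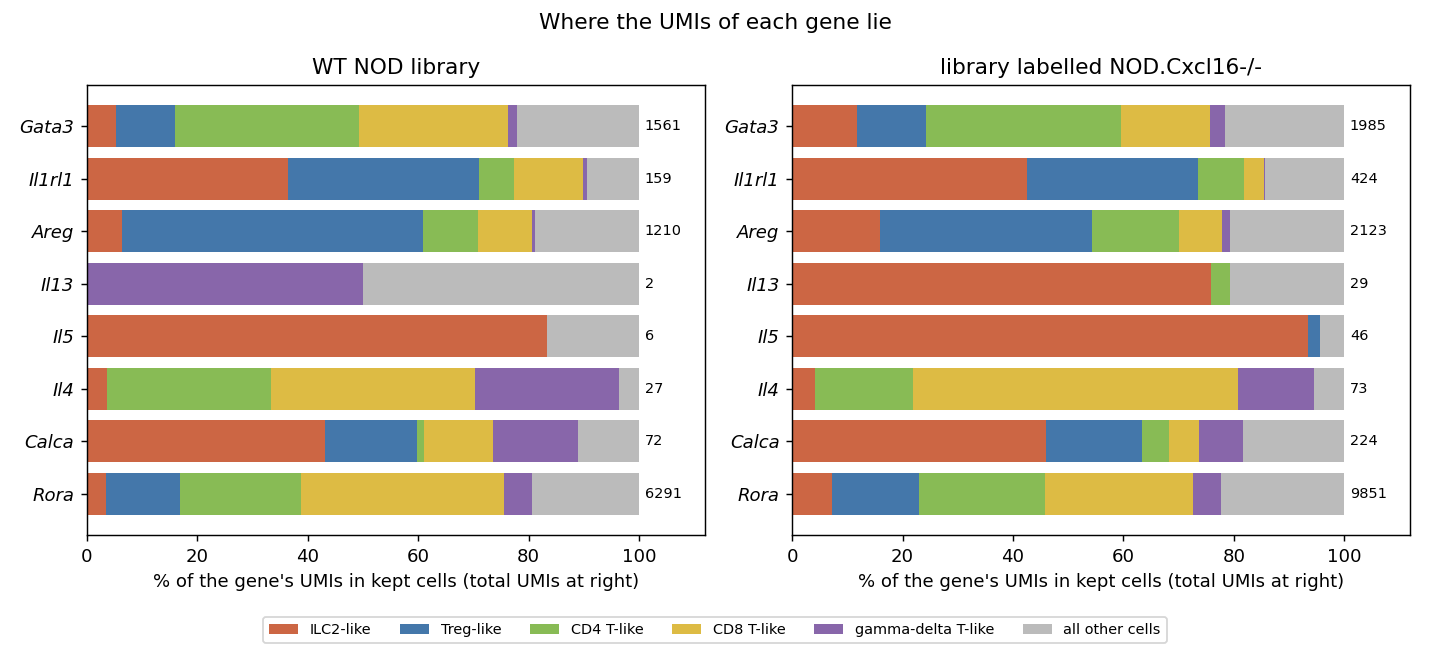
Share of each gene's UMIs in kept cells (percent, horizontal axis) by cell class, in the WT NOD library (left) and the library labelled NOD.Cxcl16-/- (right), with the total number of UMIs at the right of each bar. Il5 lies almost entirely in ILC2-like cells, Treg-like cells hold the largest share of Areg among the classes drawn, and the Il13 bar of WT NOD rests on 2 UMIs.

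Treg-like cells (409 and 609 cells) carried the receptor and growth factor side of the programme without its cytokines. They had 0 UMIs of Il13 and Il4 in both libraries, with exact intervals that reach 0.898% and 0.604% of cells for each gene. Il5 had 0 and 1 UMI. Areg was found in 140 and 191 cells, with up to 54 and 51 UMIs in a cell. WT NOD cells had 296 CPM (274 to 320) and the others 207 CPM (193 to 222), and the log2 ratio was -0.52 (-0.67 to -0.37), the opposite direction to ILC2-like cells and just short of 1.5-fold. In WT NOD this was below the ILC2-like level by a small margin of the intervals, and in the other library by far.

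Il1rl1 in Treg-like cells was found in 31 and 49 cells and gave a log2 ratio of 0.44 (-0.03 to 0.92). Gata3 gave -0.24 (-0.53 to 0.06), Rora 0.05 (-0.07 to 0.18) and Calca 0.88 (-0.09 to 1.94), all of whose intervals included 0. Of the 5 members measured none was called, where 2.81% of 9240 genes were called higher and 2.61% lower. Foxp3, the defining factor of Tregs, was at 209.8 and 207 CPM in the class (log2 ratio -0.02, -0.19 to 0.15).

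Treg-like cells with an Il1rl1 UMI also had more of Gata3, Areg and Rora. Gata3 stood at 138 CPM in the 31 Il1rl1-positive WT NOD cells against 69.2 CPM in the other 378, and at 125 against 55.9 CPM in the library labelled NOD.Cxcl16-/-. Rora stood at 657 against 357 CPM and at 685 against 359 CPM. Areg stood at 432 against 286 CPM and at 421 against 183 CPM. Only 31 and 49 cells held Il1rl1, and single Treg-like cells held up to 54 and 51 Areg UMIs. Whether the Areg difference between the libraries depends on Il1rl1 was not tested. The median depths were 4470 against 4146 UMIs and 5147 against 4286.5 UMIs, and no test was made of these cell-level differences.

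At a finer clustering resolution of 2, a pair of clusters was named Treg-like, again formed without the 8 genes. They are not an exact split of the class above. The first (282 and 408 cells) had Areg at 323 and 219 CPM, Il1rl1 at 15.2 and 23.4 CPM and the chemokine receptor gene Ccr8 at 52.2 and 41.9 CPM. The second (143 and 216 cells), led by Lrig1 and Sntb1, had Il1rl1 at 50.9 and 66.1 CPM, but Areg at only 156 and 132 CPM and Ccr8 at 13.2 and 10.1 CPM. Receptor and product were thus highest in different Treg-like clusters in both libraries. Calca had 12 and 39 UMIs in the first cluster and 0 in the second. The second cluster was shallower, with median totals of 3239 and 3275 UMIs against 4962.5 and 5291.

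CD4 T-like cells (1792 and 2046 cells) had Gata3 in 371 and 466 cells but almost none of the cytokines. Il4 had 8 UMIs in 4 cells and 13 UMIs in 6 cells, Il13 0 and 1 UMI and Il5 none. Areg was at 12.4 CPM (10.3 to 14.8) in WT NOD against 27.7 CPM (24.8 to 30.8), with a log2 ratio of 1.16 (0.86 to 1.47), and Il1rl1 at 1.03 and 2.88 CPM, a log2 ratio of 1.48 (0.44 to 2.66). Both were called higher, Il1rl1 (10 and 35 UMIs) reaching the minimum of 30 UMIs only through the library in which it was higher, where 2.52% of 11228 genes were and 2.60% were lower. The Treg factor Foxp3 moved with them, at 3.30 and 6.01 CPM, and its part was not tested. Rora gave 142 and 185 CPM, a log2 ratio of 0.38 (0.29 to 0.48).

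Gates on single transcripts, which do not use clusters, gave another picture for Areg in CD4 T cells. Among gated T cells with Cd4 and without Foxp3 or Cd8 transcripts (1255 and 1337 cells) Areg stood at 27.5 CPM (23.9 to 31.5) in WT NOD, with 210 UMIs. The other library had 304 UMIs, an interval of 26.7 to 33.5 CPM that overlapped it, so the higher Areg of CD4 T-like clusters was not seen in this gate. Foxp3 was detected in 62.8% of cells of the Treg-like cluster, over both libraries. The CD4 T gate can therefore take in Tregs without a Foxp3 UMI, and their part in its Areg level was not tested. In the Treg gate, T cells with Foxp3 and without Cd8 transcripts (264 and 420 cells), Areg was at 250 and 154 CPM, in the same direction as in the clusters. The ILC2 gate (77 and 133 cells), which asks for at least 2 ILC2 markers and none of several T, B, NK and myeloid genes, had lower levels of all the main members, such as Gata3 at 90.8 and 125 CPM and Rora at 414 and 454 CPM, and kept Areg higher in the library labelled NOD.Cxcl16-/-, at 73.9 and 200 CPM. In this gate Il5 had 5 and 37 UMIs and Il13 0 and 19. Of the gate's markers, Lmo4, Ptpn13 and Hilpda were also found in 10.5%, 16.0% and 9.71% of WT NOD CD4 T-like cells. The ILC2 gate can therefore take in other cells, and their part in its lower levels was not tested.

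Il4 was found mostly outside the ILC2-like class. Within the gamma-delta T-like class a small cluster led by Zbtb16, the factor that marks innate-like T cells, held Il4 in 6 of 26 WT NOD cells (23.1%, 8.97 to 43.6) and 7 of 30 cells (23.3%, 9.93 to 42.3) of the other library. Its level there was 47.6 CPM (17.5 to 104) and 59.6 CPM (28.6 to 110), with no difference beyond counting error. These cells had Rora at 714 and 841 CPM, and Areg, Il1rl1 and Il5 at 0 or 1 UMI. The largest single source of Il4 was 1 cell of the library labelled NOD.Cxcl16-/- with 42 UMIs, among 73 in that library. It was grouped with CD8 T-like cells but had 1 UMI of Cd4, none of Cd8a or Cd3e and 38 of Xcl1, a chemokine gene of activated cytotoxic cells. The CD4 T gate took it in, so UMIs of Cd3d or Cd3g were present.

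In CD8 T-like cells (3660 and 1779 cells) 3 members were called higher in the library labelled NOD.Cxcl16-/-, where 3.62% of 11846 genes were and 2.78% were lower. Il4 (10 and 43 UMIs) was among them, and reached the minimum, through that 1 cell, and Areg, at 6.10 and 12.1 CPM, had 44 of its 166 UMIs in 1 cell. Rora was at 120 and 193 CPM, a log2 ratio of 0.68 (0.60 to 0.76). A shallow cluster led by Cxcr4, Abhd2 and Gzmk made up 1694 of the WT NOD cells and 240 of the others, so different clusters made up the class in the libraries. Gata3 did not differ, at 21.8 and 23.4 CPM.

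Gamma-delta T-like cells (93 and 112 cells) had Areg at 16.9 and 52.4 CPM, from 7 and 30 UMIs. Of the 30 UMIs 19 came from 1 cell, and the gene reached the minimum only through that library, so its call there (3.33% of 4721 genes were called higher and 2.58% lower) is not read as a difference. NK-like cells (106 and 95 cells) had Gata3 at 65.4 and 33.3 CPM, 34 and 16 UMIs with a log2 ratio of -0.98 (-1.93 to -0.08), called lower where 2.91% of 4566 genes were and 2.85% were higher. Their Areg was 18 UMIs, 17 of them in 1 cell, and 0 UMIs. In macrophage-like cells (253 and 620 cells) Gata3, Areg and Rora were called higher, where 11.2% of 11289 genes were and 7.98% were lower. The class joined clusters with median totals of 15143 and 2182 UMIs, and the deeper held 110 of the 253 WT NOD cells and 425 of the 620 others. Class medians were 4808 and 11329 UMIs. Gata3 (12 and 167 UMIs) and Areg (21 and 230) reached the minimum only through the deeper library. Cd3e was detected in 44.7% of cells in one of its clusters and 45.9% in the other, over both libraries, so T-cell transcripts were present in it, and their part was not tested. In that class, 2 barcodes with 69300 and 117758 UMIs and with 33 and 29 UMIs of Cd3e held its 6 Il13 UMIs.

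Genes with the most similar pattern were sought over 24 sums of class and library among 12020 genes, by Pearson's r of log2(CPM + 1), as a description in which the points share libraries and depth. Gata3 was most like Rora (r = 0.93). Il1rl1 and Areg were each most like Ccr8 (0.88 and 0.87), the chemokine receptor gene of tissue Tregs, and next like each other (0.86). Calca was most like Mib1 (0.94) and Csf2 (0.90), and Rora most like Cish (0.95), a target of STAT5. Il13, Il5 and Il4 had fewer than 200 UMIs and were not compared.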

How the data were processed

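Single-cell RNA libraries of 2 groups, 1 library each, were used as the matrices of UMI counts per gene and barcode that the authors deposited, raw and not normalised, with gene names and barcodes in separate deposited lists. Per the submitters' processing notes they were made with Cell Ranger 7.0.1 and build mm10; whether intronic reads were counted is not given in the sources used here. Gene positions came from GENCODE M21 (GRCm38), which held 32235 of the 32285 gene IDs, and promoter sequences from RefSeq (GRCm38.p6).

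Kept barcodes had at least 500 genes (1582 WT NOD barcodes and 311 of the other library did not) and at most 10% mitochondrial UMIs (25 and 29 did not). Doublets, scored against 2 simulated doublets per barcode, were removed at a rate set by the number of barcodes (1358 and 862). Cells were scaled to 10000 UMIs, log-transformed and clustered over both libraries (2000 variable genes, 50 components, 20 neighbours, leidenalg 0.10.2, resolution 1). The 8 genes and the lists other than tissue Treg genes were kept out of the clustering.

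Clusters were named from markers where at least 3 were each in 20% of cells. Thresholds that left some clusters unnamed (no own marker among the 10 leading genes, or NK markers with Cd3e in 50% of cells) were set after seeing the data. The members, gene lists and marker lists were chosen with earlier results of these data known. The 8 members are always named; list genes are named where they had most UMIs or passed the call, and those of most similar pattern by r. Il33, Penk, Foxp3 and single-cell marker genes are named in addition, after their values were seen.

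UMIs were summed per class and library. CPM carry exact Poisson, shares exact Clopper-Pearson and ratios exact conditional intervals (95%). With 1 library per group no test was made. A fold against 0 used a floor of 3 UMIs and is given without a counting interval. A call needs 1.5-fold, an interval excluding 1 and 30 UMIs over both libraries. Detection was also read after thinning to 2000 UMIs, leaving out shallower cells. The ratio and call steps were tested on simulated data. Alternatives were doublets kept, 200 genes, resolution 2, all genes kept for clustering, libraries clustered apart, per-cell gates, TMM scaling, 1 CPM added and thinning. Added after seeing the data were leaving out the cell highest for the gene, counting the Il22 and Il23r led cluster as ILC2-like and leaving out cells with Cd3d or Cd3e.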

Additional observations from a re-analysis of the deposited data

Results flagged for a closer look

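With 1 library per group, differences that go opposite ways in different classes were not tested against each other. Areg is listed because its counting interval lay above no difference in some classes and below it in others. Its log2 ratio, library labelled NOD.Cxcl16-/- over WT NOD, was 0.97 in ILC2-like, 1.16 in CD4 T-like, 0.99 in CD8 T-like, 1.63 in gamma-delta T-like, 0.89 in macrophage-like and 2.10 in migratory DC-like cells. It was -0.52 in Treg-like and -2.55 in cDC1-like cells. Single cells carried much of several of these values: 38 of the 40 WT NOD Areg UMIs in cDC1-like cells, and in the other library 19 of 30 in gamma-delta T-like, 44 of 166 in CD8 T-like, 46 of 230 in macrophage-like and 11 of 26 in migratory DC-like cells. In the gate on single CD4 T cells, which can take in Tregs without a Foxp3 UMI, the Areg intervals of the libraries overlapped (23.9 to 31.5 and 26.7 to 33.5 CPM). Gata3 is listed for a log2 ratio of 1.23 in macrophage-like and -0.98 in NK-like cells.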

How the results depend on the processing

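No paired analysis was possible because each group has 1 library and the labels give no replicate numbers. For the 14 ratios of members in ILC2-like, Treg-like and CD4 T-like cells, 154 values under alternatives were computed. Of these, 136 stayed inside the counting interval of the value reported and 18 left it. The counts take in Il13 in ILC2-like cells, a floor ratio reported without a counting interval, so they do not describe how stable Il13 is. Of the 14 shares of UMIs in ILC2-like cells, 77 of 98 values stayed inside. Among the 14 ratios only Areg and Il5 in ILC2-like cells were past the call, and neither changed sign. The called Areg and Il1rl1 ratios of CD4 T-like cells were not among the 14. Under some alternatives the sign changed for Gata3, Il1rl1 and Rora in Treg-like cells. It also changed for Gata3 and Il4 in CD4 T-like cells, where Il4 ranged from -0.14 to 2.82.

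Counting the Il22 and Il23r led cluster as ILC2-like moved the log2 ratio of Gata3 to 0.74, of Il1rl1 to 1.13, of Areg to 1.61 and of Calca to 1.23, and the Rora share to 6.07% and 8.04%. Per-cell gates gave Areg 1.43 and Rora 0.13 in ILC2 cells, Areg -0.70 and Rora -0.077 in Tregs, and Gata3 -0.16 and Il4 2.53 in CD4 T cells, a gate that takes in the cell with 42 Il4 UMIs. Thinning to 2000 UMIs gave Rora 0.81 and an Il13 floor ratio of 0.22 in ILC2-like cells, and Il1rl1 -0.15 and Areg -0.32 in Treg-like cells. With doublets kept, Treg-like Gata3 was at 0.073 and Areg at -0.21. The Il13 floor ratio was 1.17 without its highest cell. Il4 in CD4 T-like cells was 2.82 with the libraries clustered apart, where the class holds 65 Il4 UMIs.

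With doublets kept, the shares of UMIs in ILC2-like cells (WT NOD, then the library labelled NOD.Cxcl16-/-) were 3.66% and 9.30% for Gata3, 23.8% and 31.3% for Il1rl1, 2.44% and 5.71% for Rora, and 12.2% for Areg in the second library. Per-cell gates gave 3.78% and 7.96% for Gata3, 27.7% and 28.8% for Il1rl1, 3.97% and 11.9% for Areg, 30.6% and 29.9% for Calca, 4.28% and 5.85% for Rora, and in the second library 80.4% for Il5 and 0% for Il4. The gates can take in other cells, as given above, and the cause was not tested.

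Cell number and depth limit the cytokine genes. With 47 WT NOD ILC2-like cells and 189332 UMIs in all, a count of 0 for Il13 still allows up to 7.55% of cells with a UMI. Il4 has no ratio there.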
